A study of Mus musculus with 20 samples.

Results

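The genes described here are 9 antioxidant and heme-degrading genes, Hmox1, Txnrd1, Gclm, Gclc, Nqo1, Srxn1, Slc7a11, Sod2 and Prdx1, out of 18193 mouse genes that had at least 1 probe set of their own on the array. They were chosen by name with earlier results of these data known, so counts among them are descriptions and not an independent test. Every probe set annotated to 1 of them and to no other gene was taken, which gave 19 probe sets for 8 genes. All 5 Prdx1 probe sets also carry a second gene symbol, so no value is given for Prdx1. The study measured total RNA of whole testes from 2 inbred mouse strains, AKR/N and C57BL/6, all aged 8 weeks, on 20 Affymetrix GeneChip arrays. Each strain had 2 arrays at each of 8, 10, 12 and 24 h after a heat shock of 15 min at 43 °C, and 2 arrays of unheated control testes. The sources used here do not give how the heat was applied, nor whether an array held 1 mouse or a pool. The labels do not tie replicate arrays to separate mice, so every p-value measures only the spread between these arrays, which may be technical.

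NRF2, the protein of Nfe2l2, is a transcription factor that KEAP1 holds in the cytoplasm and marks for degradation until oxidants or electrophiles modify KEAP1. Freed NRF2 pairs with small MAF proteins on antioxidant response elements, where BACH1 can occupy the same sites as a repressor, and it raises genes of glutathione synthesis, of the thioredoxin system and of quinone and heme breakdown. Hmox1 and several of the other genes also answer to further stress pathways, and germ cells of the testis are known to be sensitive to heat and to oxidative damage.

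Promoter sequences were looked at because several of the genes rose together, as described below. RefSeq promoter windows of build GRCm38.p6, each 250 bases before and 50 bases after a transcript start, were matched by symbol for 7 of the 9 genes, in 9 windows. Hmox1 and Gclc had no entry. The core of the antioxidant response element was searched as TGACNNNGC on both strands. It was present in windows of 4 genes, Txnrd1, Gclm, Srxn1 and Prdx1, and in 12.4% of all 32851 windows. A gene was counted if any of its windows matched, whereas the shares are of single windows. Of the 3 Txnrd1 windows, only the second held the core. An AP-1 type motif, TGANTCA, was present in windows of 2 genes, Srxn1 and Prdx1, and in 7.81% of all windows. The 2 motifs can overlap, and in the Prdx1 window they did. A heat shock element pair, GAANNTTC or TTCNNGAA, was in none of these windows and in 15.1% of all windows. The 3 stretches shown here, each the 250 bases before the start on the + strand, have the motif letters in capitals. They belong to genes that had both a motif and at least 1 probe set called higher after heat. Each of these genes also had a tested probe set that passed at no time against controls. Nqo1, Slc7a11 and Sod2 also had a probe set called higher after heat, and their windows held none of the motifs. In the Txnrd1 and Gclm stretches the capitals mark the antioxidant response element core, and in the Srxn1 stretch they mark both AP-1 type motifs. The Srxn1 match to the antioxidant response element core lay behind the start, at bases 29 to 37 of the transcript. The Srxn1 AP-1 type motif nearer the start is followed by gc. Together they read TGAGTCAGC, which differs from the searched core TGACNNNGC by 1 letter, G in place of C, and was therefore not counted as a match.
Txnrd1, chr10:82858956-82859205, the second of its 3 windows: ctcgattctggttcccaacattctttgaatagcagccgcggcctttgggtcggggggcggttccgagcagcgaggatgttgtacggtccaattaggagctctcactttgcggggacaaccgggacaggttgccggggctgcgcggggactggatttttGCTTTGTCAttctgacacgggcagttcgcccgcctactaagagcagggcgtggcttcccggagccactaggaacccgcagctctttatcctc
Gclm, chr3:122245307-122245556: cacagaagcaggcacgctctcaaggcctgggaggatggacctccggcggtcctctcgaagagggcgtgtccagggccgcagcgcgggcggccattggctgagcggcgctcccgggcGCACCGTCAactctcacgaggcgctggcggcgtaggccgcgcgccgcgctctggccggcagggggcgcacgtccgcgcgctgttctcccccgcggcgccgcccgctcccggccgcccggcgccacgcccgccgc
Srxn1, chr2:152105274-152105523: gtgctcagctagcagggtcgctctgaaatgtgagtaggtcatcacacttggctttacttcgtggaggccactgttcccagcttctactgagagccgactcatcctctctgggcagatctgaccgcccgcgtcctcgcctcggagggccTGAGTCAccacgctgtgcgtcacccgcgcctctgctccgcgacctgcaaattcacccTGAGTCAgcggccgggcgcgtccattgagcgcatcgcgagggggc
A match to these letters is a description of the sequence and not a measured binding site.

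The deposited signals were linear intensities with the same trimmed mean, 125.001, on every array. Median signals were 24.9 to 34.9, and 47.6% to 55.5% of probe sets on an array lay below a signal of 32. The 2 arrays of a group correlated over probe sets at r = 0.966 to 0.985, lowest at 12 h in C57BL/6. The ratio of the 3′ to the 5′ actin probe sets, a sign of RNA quality, was 1.87 to 3.57, and C57BL/6 12 h replicate 2 had the highest ratio. Elongating spermatid markers were bright on all arrays, with Prm1, a protamine of late spermatids, at 8847 to 11483. Spermatogonia markers were far lower, from dim ones such as Lin28a, at 2.33 to 83.4, and Sall4, at 4.16 to 43.2, up to Uchl1, at 207 to 346. Every change below is on the log2(signal + 16) scale, which understates the change of dim probe sets. All 20 arrays were fitted together with limma over 28000 single-gene probe sets that passed a filter on dim signals, and a change was called at an adjusted p (Benjamini-Hochberg) under 0.05. Of the 19 probe sets, 17 passed the filter, which read the brightest of the 10 group means, and they cover 8 genes. One Txnrd1 probe set and one Slc7a11 probe set did not pass. All times of a strain share its 2 control arrays, so changes at different times are not independent. In whole testes, fewer cells of a type and less RNA per cell cannot be told apart.

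Hmox1, which encodes the inducible heme oxygenase that splits heme into biliverdin, iron and carbon monoxide, had the largest rise of the 17 probe sets at 12 h in both strains. In AKR/N testes its signals were 27.9 and 22.1 in controls, 109.7 and 146.8 at 8 h, 431.7 and 227.8 at 10 h, 633.1 and 336.9 at 12 h, and 43.2 and 48.8 at 24 h. The C57BL/6 arrays read 5.6 and 29.8 in controls, 105.6 and 68.0 at 8 h, 294.3 and 238.2 at 10 h, 226.7 and 433.3 at 12 h, and 96.96 and 90.9 at 24 h. All 8 heated arrays of each strain were above both of its controls. Signals at 10 and 12 h overlapped within each strain, and the 24 h signals were below every array of 10 and 12 h. At 12 h Hmox1 rose by 3.55 in AKR/N (SE 0.40, 11.7-fold, limma adjusted p = 5.45e-04) and by 3.39 in C57BL/6 (SE 0.40, 10.5-fold, adjusted p = 3.40e-04). At 10 h it rose by 3.01 in AKR/N (adjusted p = 0.00202) and by 3.16 in C57BL/6 (adjusted p = 0.00116). Both times thus passed in both strains. When only the groups compared were fitted, the 12 h rise in AKR/N still passed (adjusted p = 0.0460), but the 10 h rise in AKR/N (adjusted p = 0.122) and the C57BL/6 rises at 10 h (adjusted p = 0.0837) and 12 h (adjusted p = 0.0966) did not. The 8 h changes of 1.81 in AKR/N (adjusted p = 0.115) and 1.68 in C57BL/6 (adjusted p = 0.221) did not pass. At 24 h the change was 0.60 in AKR/N (SE 0.40, adjusted p = 0.323), and in C57BL/6 it rose by 1.80 (SE 0.40, adjusted p = 0.00352). With C57BL/6 control replicate 1 left out, the C57BL/6 value was 1.26 and did not pass (adjusted p = 0.0544). The 24 h level was lower than the mean of the earlier heated times by 2.19 in AKR/N (log2 change -2.19, SE 0.32, adjusted p = 7.23e-04), and the C57BL/6 change of -0.94 did not pass (SE 0.32, adjusted p = 0.0523). The size of the Hmox1 change moves with the constant added, since the controls are dim. At 12 h it was 4.16 in AKR/N and 4.46 in C57BL/6 with 1 added, and 2.57 in AKR/N and 2.23 in C57BL/6 with 64 added.

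**Figure D1:**
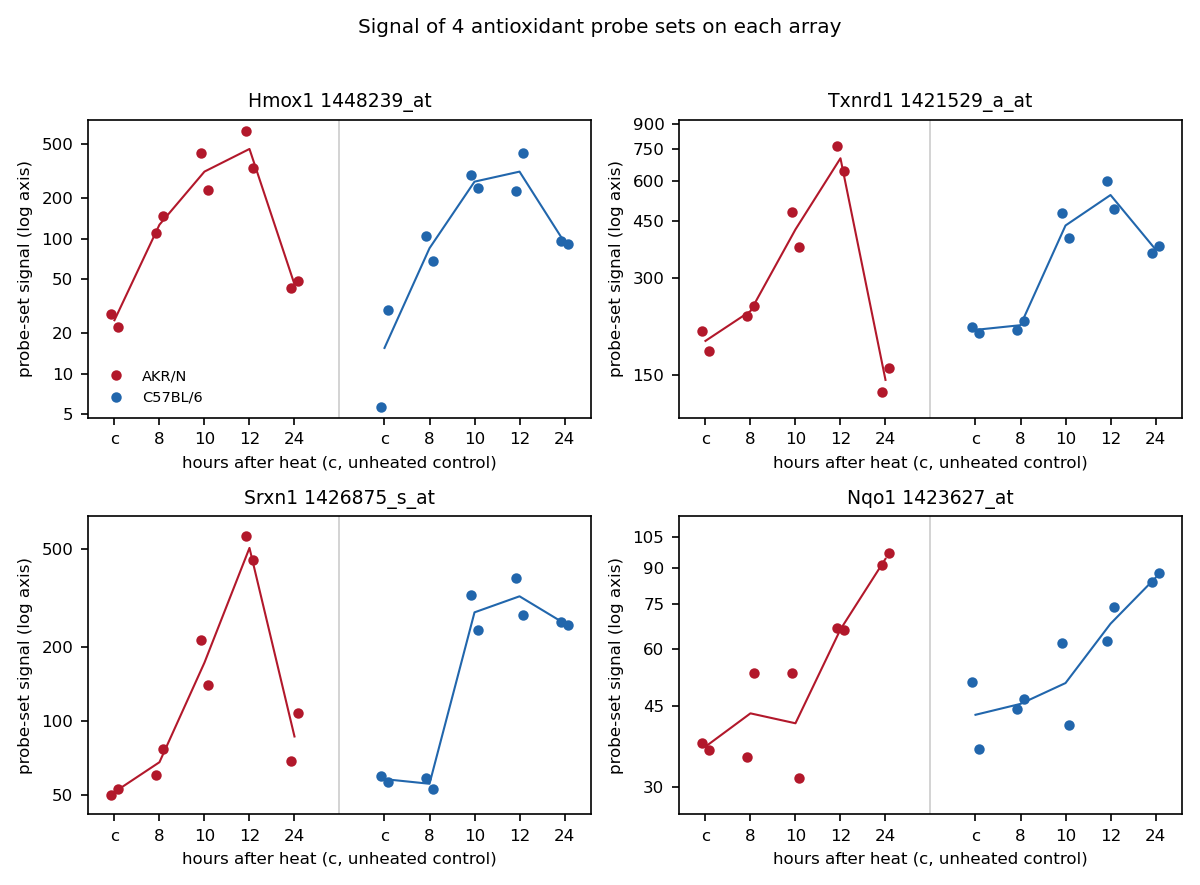
Signals (log axis) of Hmox1, Txnrd1 1421529_a_at, Srxn1 1426875_s_at and Nqo1 on each array against time after heat, with AKR/N on the left and C57BL/6 on the right of each panel. Points are the 2 arrays of a group and lines join the group means of log2(signal + 16), turned back into signals. The group means of the first 3 of these probe sets were highest at 12 h in both strains, and that of Nqo1 at 24 h.

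Txnrd1, the cytosolic thioredoxin reductase that keeps thioredoxin in its working form, rose at 10 and 12 h in both strains on its brightest probe set, and at 24 h it was called higher in C57BL/6. In AKR/N testes the signals of 1421529_a_at were 205.8 and 178.8 in controls, 228.9 and 245.9 at 8 h, 480.8 and 374.1 at 10 h, 771.0 and 642.7 at 12 h, and 133.2 and 158.5 at 24 h. In C57BL/6 the signals were 211.6 and 203.6 in controls, 208.1 and 221.3 at 8 h, 476.1 and 399.7 at 10 h, 599.9 and 489.6 at 12 h, and 358.0 and 378.1 at 24 h. Both AKR/N arrays at 24 h lay below both AKR/N controls, whereas both C57BL/6 arrays at 24 h lay above both C57BL/6 controls. The 10 h rise was 1.08 in AKR/N (SE 0.16, adjusted p = 0.00392) and 1.02 in C57BL/6 (SE 0.16, adjusted p = 0.00421). The 12 h rise was 1.79 in AKR/N (SE 0.16, adjusted p = 7.60e-05) and 1.32 in C57BL/6 (SE 0.16, adjusted p = 4.58e-04). All 4 of these calls held with any 1 of the arrays behind them left out, and none held when only the groups compared were fitted (adjusted p = 0.0901 to 0.195). At 24 h the change was -0.37 in AKR/N (SE 0.16, adjusted p = 0.138), and in C57BL/6 Txnrd1 rose by 0.78 (SE 0.16, adjusted p = 0.00250). The 24 h level was lower than that of the earlier heated times in AKR/N, at -1.42 (SE 0.13, adjusted p = 1.05e-04), and differed by -0.01 in C57BL/6 (SE 0.13, adjusted p = 0.962). The second tested Txnrd1 probe set, 1424486_a_at, was dim, at 8.1 to 145.1 over all arrays, and passed in neither strain at any time.

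Srxn1, the sulfiredoxin that reactivates over-oxidised peroxiredoxins, rose on 3 of its 4 tested probe sets in both strains at 12 h. In AKR/N testes the signals of 1426875_s_at, the probe set with the largest change, were 50.1 and 52.6 in controls, 60.0 and 76.6 at 8 h, 213.0 and 139.8 at 10 h, 569.1 and 451.6 at 12 h, and 68.9 and 107.6 at 24 h. C57BL/6 testes had 59.4 and 56.5 in controls, 58.4 and 52.6 at 8 h, 326.1 and 235.0 at 10 h, 383.5 and 270.1 at 12 h, and 252.1 and 247.0 at 24 h. Controls and 8 h arrays were close in C57BL/6, and at 24 h both C57BL/6 arrays were above both AKR/N arrays of that time. At 12 h this probe set rose by 2.96 in AKR/N (SE 0.24, 7.77-fold, adjusted p = 1.88e-05) and by 2.19 in C57BL/6 (SE 0.24, 4.57-fold, adjusted p = 1.75e-04). At 24 h it changed by 0.61 in AKR/N (SE 0.24, adjusted p = 0.0907) and rose by 1.84 in C57BL/6 (SE 0.24, adjusted p = 8.00e-05). The brightest Srxn1 probe set, 1451680_at, had 322.3 and 299.4 in AKR/N controls against 291.6 and 289.4 in C57BL/6 controls, and smaller changes. It rose by 0.70 in AKR/N at 12 h (adjusted p = 0.0234), by 0.64 in C57BL/6 at 12 h (adjusted p = 0.0159) and by 0.89 in C57BL/6 at 24 h (adjusted p = 8.09e-04). The AKR/N 12 h call on that probe set was lost without any 1 of the 4 arrays behind it (adjusted p = 0.0641 to 0.13), and the C57BL/6 12 h call without C57BL/6 12 h replicate 1, control replicate 1 or control replicate 2 (adjusted p = 0.0743 to 0.108). On 1425351_at, the rise at 12 h was 1.18 in AKR/N (adjusted p = 0.00193) and 0.78 in C57BL/6 (adjusted p = 0.00721). The C57BL/6 call on this probe set ended without C57BL/6 control replicate 2 (adjusted p = 0.0509). The dimmest Srxn1 probe set, 1419942_at, at 2.5 to 39.8 over all arrays, did not pass at any time.

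Gclm and Gclc encode the modifier and the catalytic subunit of glutamate-cysteine ligase, the first step of glutathione synthesis, and the probe sets of each gene differed from one another. The dim Gclm probe set 1439050_at had signals of 19.9 and 11.7 in AKR/N controls, 21.0 and 28.8 at 8 h, 31.4 and 29.1 at 10 h, 59.5 and 59.9 at 12 h, and 39.2 and 49.2 at 24 h. The C57BL/6 arrays read 20.4 and 15.7 in controls, 30.3 and 37.2 at 8 h, 42.0 and 45.0 at 10 h, 59.7 and 57.6 at 12 h, and 65.3 and 39.9 at 24 h. Every heated array of either strain was above both controls of that strain. This probe set rose at 12 h by 1.26 in AKR/N (SE 0.19, adjusted p = 0.00268) and by 1.14 in C57BL/6 (SE 0.19, adjusted p = 0.00199). At 24 h it rose by 0.93 in AKR/N (SE 0.19, adjusted p = 0.00491) and by 0.99 in C57BL/6 (SE 0.19, adjusted p = 0.00121), and the AKR/N call ended without AKR/N 24 h replicate 2 (0.81, adjusted p = 0.0670). The brighter Gclm probe set, 1418627_at, ranged over 146.3 to 299.8 in AKR/N and 163.5 to 349.3 in C57BL/6 and passed at no time against controls. Its 12 h change was 0.73 in AKR/N (SE 0.22, adjusted p = 0.0656) and 0.21 in C57BL/6 (SE 0.22, adjusted p = 0.559).

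Gclc was called after heat on 1 probe set, in AKR/N. Signals of 1424296_at in AKR/N testes were 102.3 and 152.9 in controls, 201.3 and 275.9 at 8 h, 289.2 and 310.8 at 10 h, 236.6 and 244.4 at 12 h, and 158.9 and 207.2 at 24 h. In C57BL/6 the signals were 269.1 and 296.6 in controls, 212.9 and 188.1 at 8 h, 285.4 and 248.9 at 10 h, 269.9 and 192.7 at 12 h, and 265.8 and 319.8 at 24 h. The AKR/N controls were below every other array of the study on this probe set. It rose in AKR/N by 1.16 at 10 h (SE 0.21, adjusted p = 0.0104) and by 0.86 at 12 h (SE 0.21, adjusted p = 0.0325), against -0.08 at 10 h (adjusted p = 0.872) and -0.29 at 12 h (adjusted p = 0.391) in C57BL/6. The strain difference of the 10 h change, 1.24 (SE 0.30), did not pass (adjusted p = 0.122). Without AKR/N control replicate 1 the AKR/N change was 0.90 at 10 h (adjusted p = 0.116) and 0.60 at 12 h (adjusted p = 0.214), and each call also ended without either heated array of its time (adjusted p = 0.0547 to 0.138). The other Gclc probe set, 1455959_s_at, ranged over 140.0 to 201.9 in AKR/N and 189.4 to 267.1 in C57BL/6 and passed at no time, with changes of 0.05 in AKR/N (SE 0.15, adjusted p = 0.887) and -0.32 in C57BL/6 (SE 0.15, adjusted p = 0.155) at 12 h.

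Slc7a11, the cystine importer that feeds glutathione synthesis, passed at 1 time in 1 strain. Signals of 1420413_at in C57BL/6 testes were 40.1 and 22.9 in controls, 47.2 and 42.7 at 8 h, 59.0 and 48.2 at 10 h, 32.4 and 62.5 at 12 h, and 61.1 and 61.2 at 24 h. In AKR/N testes they were 36.5 and 33.0 in controls and 17.6 to 41.1 over the 8 heated arrays. At 24 h it changed by 0.12 in AKR/N (SE 0.22, adjusted p = 0.749) and rose by 0.72 in C57BL/6 (SE 0.22, adjusted p = 0.0227). The C57BL/6 value did not pass when 24 h replicate 1 was left out (adjusted p = 0.0907), nor with 24 h replicate 2 (adjusted p = 0.0841) or control replicate 2 (0.46, adjusted p = 0.229) left out.

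Nqo1, a quinone reductase that is widely used as a marker of NRF2 activity, rose late, and in both strains. Its signals in AKR/N testes were 37.4 and 36.1 in controls, 35.0 and 53.3 at 8 h, 53.2 and 31.5 at 10 h, 66.4 and 65.8 at 12 h, and 91.2 and 97.002 at 24 h. C57BL/6 testes had 50.7 and 36.4 in controls, 44.4 and 46.6 at 8 h, 61.7 and 41.0 at 10 h, 62.4 and 73.9 at 12 h, and 83.6 and 87.5 at 24 h. The 24 h arrays were the highest of each strain, and the 8 and 10 h arrays overlapped the controls. At 24 h Nqo1 rose by 1.06 in AKR/N (SE 0.20, adjusted p = 0.00400) and by 0.78 in C57BL/6 (SE 0.20, adjusted p = 0.0102). It was higher at 24 h than at the earlier heated times by 0.75 in AKR/N (SE 0.17, adjusted p = 0.00708) and by 0.54 in C57BL/6 (SE 0.17, adjusted p = 0.0342). The AKR/N rise over earlier times ended without AKR/N 24 h replicate 2 (0.71, adjusted p = 0.107). The C57BL/6 rise over controls ended without C57BL/6 24 h replicate 2 (adjusted p = 0.0550) or control replicate 2 (0.61, adjusted p = 0.106), and the C57BL/6 rise over earlier times ended without any 1 of 6 arrays (adjusted p = 0.0526 to 0.177).

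Sod2, the manganese superoxide dismutase of mitochondria, gave opposite changes on its probe sets. The 2 bright probe sets fell in C57BL/6. Signals of the brightest, 1448610_a_at, in AKR/N testes were 1626 and 1917 in controls, 1910.2 and 1977 at 8 h, 1079 and 1512 at 10 h, 1279 and 1386 at 12 h, and 1535 and 1449 at 24 h. The C57BL/6 arrays read 1894 and 1846 in controls, 1951 and 2027 at 8 h, 1445 and 1251 at 10 h, 1406 and 1221 at 12 h, and 1067 and 1078 at 24 h. All 10, 12 and 24 h arrays of either strain were below its controls. At 24 h this probe set changed by -0.24 in AKR/N (SE 0.16, adjusted p = 0.318) and fell by 0.79 in C57BL/6 (SE 0.16, adjusted p = 0.00183). The second bright probe set, 1417193_at, fell at 24 h by 0.59 in AKR/N (SE 0.12, adjusted p = 0.00421) and by 0.94 in C57BL/6 (SE 0.12, adjusted p = 5.84e-05), and the AKR/N call ended without AKR/N 24 h replicate 2 (adjusted p = 0.0520).

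The dim Sod2 probe set 1454976_at rose in C57BL/6. It had 56.1 and 45.8 in AKR/N controls, 38.0 and 68.4 at 8 h, 76.8 and 69.7 at 10 h, 97.7 and 94.1 at 12 h, and 79.2 and 79.2 at 24 h. In C57BL/6 the signals were 41.5 and 20.8 in controls, 46.4 and 56.7 at 8 h, 99.99 and 117.4 at 10 h, 125.9 and 156.4 at 12 h, and 132.2 and 93.9 at 24 h. All C57BL/6 arrays of 10 h or later were above both controls, and so were those of AKR/N. At 12 h it changed by 0.74 in AKR/N (SE 0.24, adjusted p = 0.0821) and rose by 1.77 in C57BL/6 (SE 0.24, adjusted p = 7.54e-04). At 24 h the change was 0.51 in AKR/N (adjusted p = 0.151), and in C57BL/6 it rose by 1.47 (adjusted p = 3.97e-04). The deposited files do not say which transcript each Sod2 probe set reads. The fourth, 1417194_at, at 8.5 to 31.1 over all arrays, did not pass at any time.

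**Figure D2:**
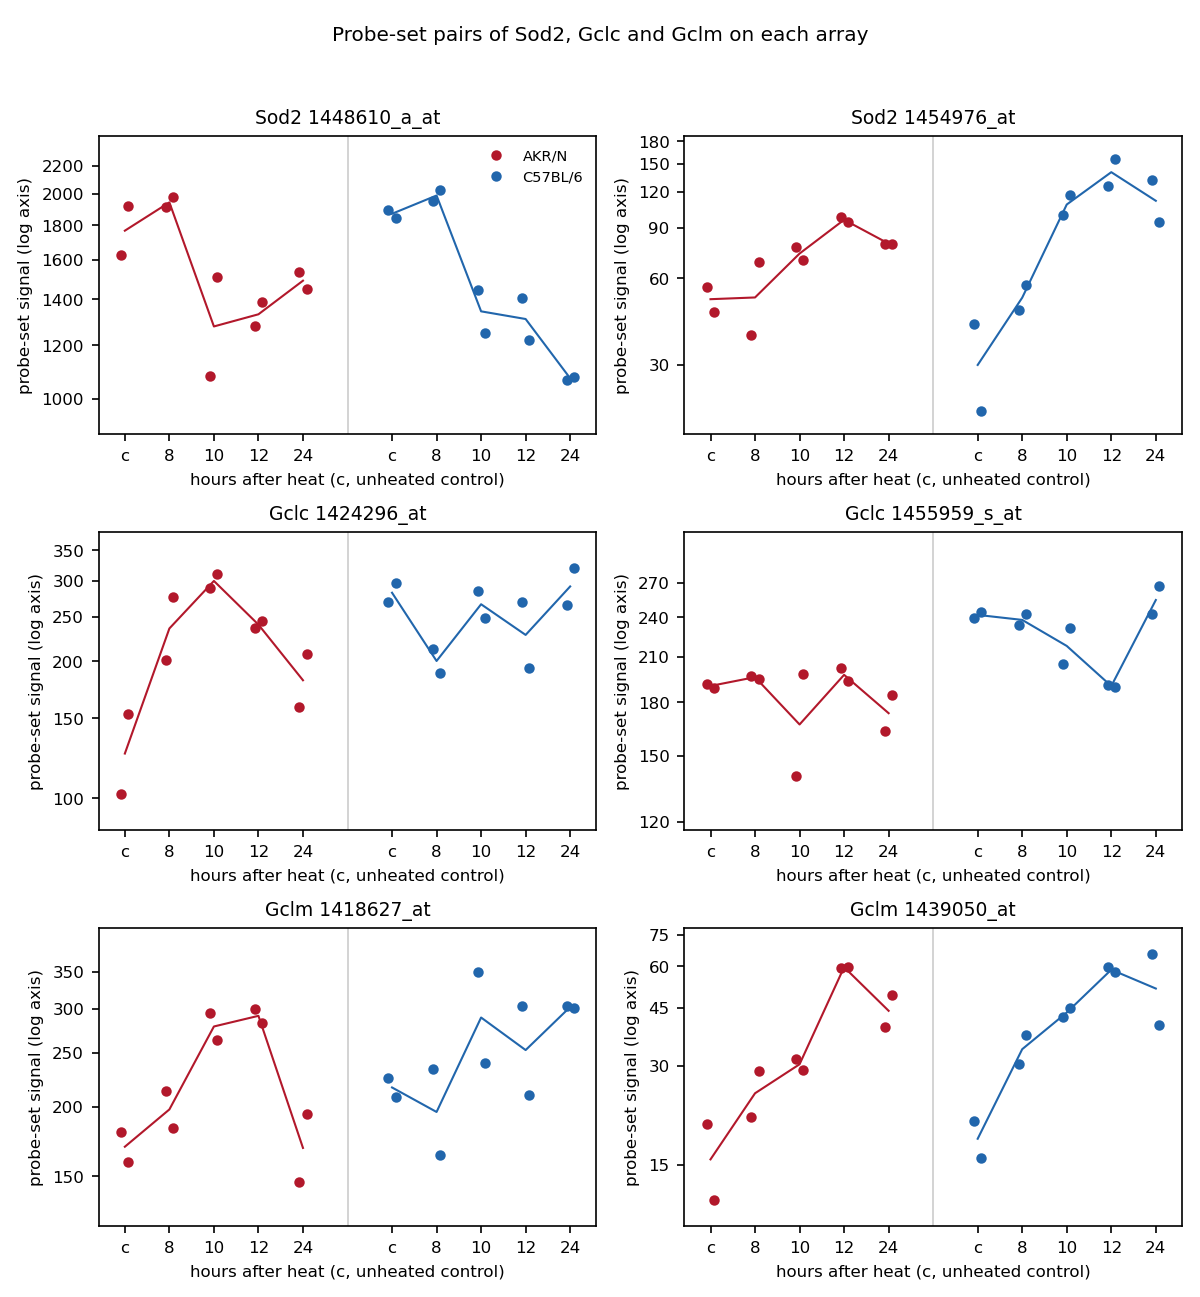
Signals (log axes with different ranges) of 2 probe sets each of Sod2, Gclc and Gclm on every array, by time after heat, with AKR/N on the left and C57BL/6 on the right of each panel; points are arrays and lines join group means. In C57BL/6 at 24 h, Sod2 1448610_a_at was at 1067 and 1078 against 1894 and 1846 in controls, while Sod2 1454976_at was at 132.2 and 93.9 against 41.5 and 20.8.

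Counted over the 17 tested probe sets, calls began at 10 h. At 8 h limma called 0 in AKR/N, with 2 at an unadjusted p under 0.05, and 0 in C57BL/6, with 4 at an unadjusted p under 0.05, where 0.107% of all probe sets were called higher and 0.0143% lower in AKR/N and 0.0893% higher and 0% lower in C57BL/6. At 10 h in AKR/N 5 were higher and 0 lower, beside 2.67% and 1.14% of all probe sets, and in C57BL/6 7 were higher and 1 lower, beside 4.05% and 3.15%. At 12 h in AKR/N 7 were higher and 0 lower, beside 3.14% and 2.1% of all, and in C57BL/6 7 were higher and 2 lower, beside 7.61% and 7.04%. At 24 h in AKR/N 2 were higher, Nqo1 and Gclm 1439050_at, and 1 lower, Sod2 1417193_at, beside 10.6% and 7.6% of all. In C57BL/6 at 24 h, 9 were higher and 2 lower, beside 17.9% and 13.1%. Over the mean of the 4 times, 6 were higher and 0 lower in AKR/N, beside 2.56% and 1.34%, and 7 were higher and 2 lower in C57BL/6, beside 8.45% and 7.46%. Over both strains, 8 were higher and 2 lower, beside 11.5% and 9.6%. The median change of the 17 at 24 h was 0.18 in AKR/N and 0.72 in C57BL/6, beside 0.02 and 0.09 over all tested probe sets. Probe sets of 1 gene are not independent measurements, and the 17 cover 8 genes.

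Several of these counts rest on single arrays or on the shared estimate of the spread. Shares of all probe sets called were worked out for the main fit only. Here and below, a smaller count in another fit may thus go with fewer calls over all probe sets, which was not tested. The AKR/N count over the mean of the times was 0 without AKR/N control replicate 1 and 3 without AKR/N control replicate 2. The AKR/N count at 10 h was 2 without AKR/N 10 h replicate 1 or control replicate 1 and 3 without AKR/N 10 h replicate 2, and at 24 h it was 1 without AKR/N 24 h replicate 2. The C57BL/6 count at 10 h was 5 without C57BL/6 10 h replicate 2 or control replicate 1 and 4 without control replicate 2. When the 4 arrays of a comparison were fitted alone, 0 were called at 10 h in AKR/N, 2 at 12 h and 0 at 24 h, and 0 were called at 10 and at 12 h in C57BL/6.

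**Figure D3:**
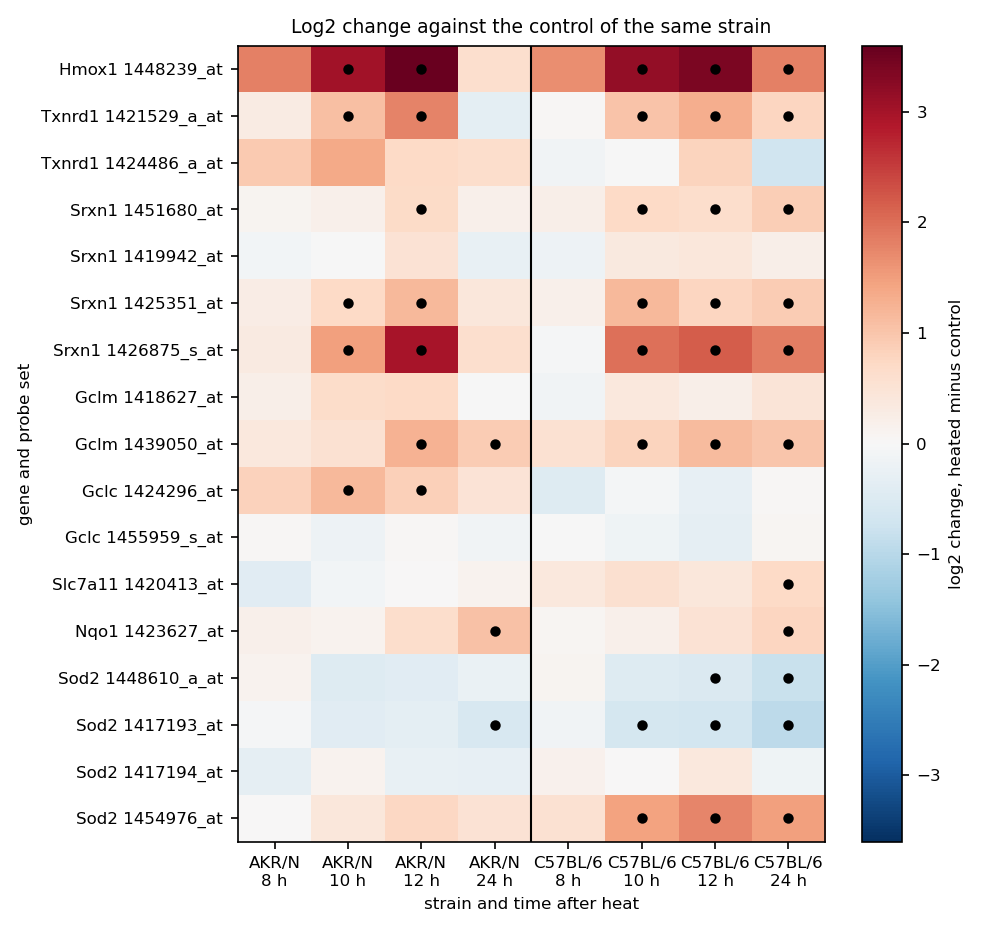
Log2 change of each of the 17 tested probe sets (rows) against the control of the same strain at 8, 10, 12 and 24 h (columns, AKR/N left, C57BL/6 right); red is higher and blue lower after heat, and a black dot marks an adjusted p under 0.05. The 8 h columns hold no dot, and the 24 h column holds 3 dots in AKR/N and 11 in C57BL/6.

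The 24 h arrays were also set against the earlier heated arrays of the same strain, which uses no control. In AKR/N 1 probe set was higher and 5 were lower at 24 h than over 8, 10 and 12 h, beside 11.7% and 8.11% of all, and in C57BL/6 1 was higher and 2 were lower, beside 13.5% and 8.75%. The 5 lower in AKR/N were Hmox1, Txnrd1 1421529_a_at, Srxn1 1426875_s_at (-0.98, SE 0.19, adjusted p = 0.00350), Gclm 1418627_at (-0.54, SE 0.18, adjusted p = 0.0445) and Sod2 1417193_at (-0.33, SE 0.09, adjusted p = 0.0255). Nqo1 was the one that rose in each strain. The AKR/N count was 3 without AKR/N 24 h replicate 1 or replicate 2, and the Gclm value lost its call without any 1 of the 8 heated AKR/N arrays (adjusted p = 0.0525 to 0.349). The C57BL/6 count was 5 without C57BL/6 12 h replicate 1 and 1 without C57BL/6 24 h replicate 1 or replicate 2.

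The strain difference of the heat effect, AKR/N minus C57BL/6, was called for 1 of the 17 probe sets at 24 h, Txnrd1 1421529_a_at, beside 0.775% of all probe sets. Its difference was -1.15 (SE 0.23, limma adjusted p = 0.0390), and both AKR/N arrays at 24 h were below both C57BL/6 arrays, at 133.2 and 158.5 against 358.0 and 378.1. The call was lost without any 1 of the 8 arrays behind it, with differences of -1.03 to -1.26 and adjusted p = 0.0635 to 0.142, with median centring (-1.02, adjusted p = 0.0811), with 1 added in place of 16 (adjusted p = 0.0541), with no filter (adjusted p = 0.0538) and with only the groups compared (adjusted p = 0.104). At 24 h the differences of Srxn1 1426875_s_at (-1.24, SE 0.33, adjusted p = 0.0935), Hmox1 (-1.20, SE 0.56, adjusted p = 0.295) and Srxn1 1451680_at (-0.71, SE 0.22, adjusted p = 0.133) did not pass, and that of Nqo1 was 0.28 (SE 0.29, adjusted p = 0.669). At 8, 10 and 12 h limma called 0 differences, with 2, 3 and 3 at an unadjusted p under 0.05, beside 0%, 0.118% and 0% of all. Averaged over times it called 0, with 3 at an unadjusted p under 0.05, beside 0.00357%, and over any time by the F test 0, with 7, beside 0.0786%.

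**Figure D4:**
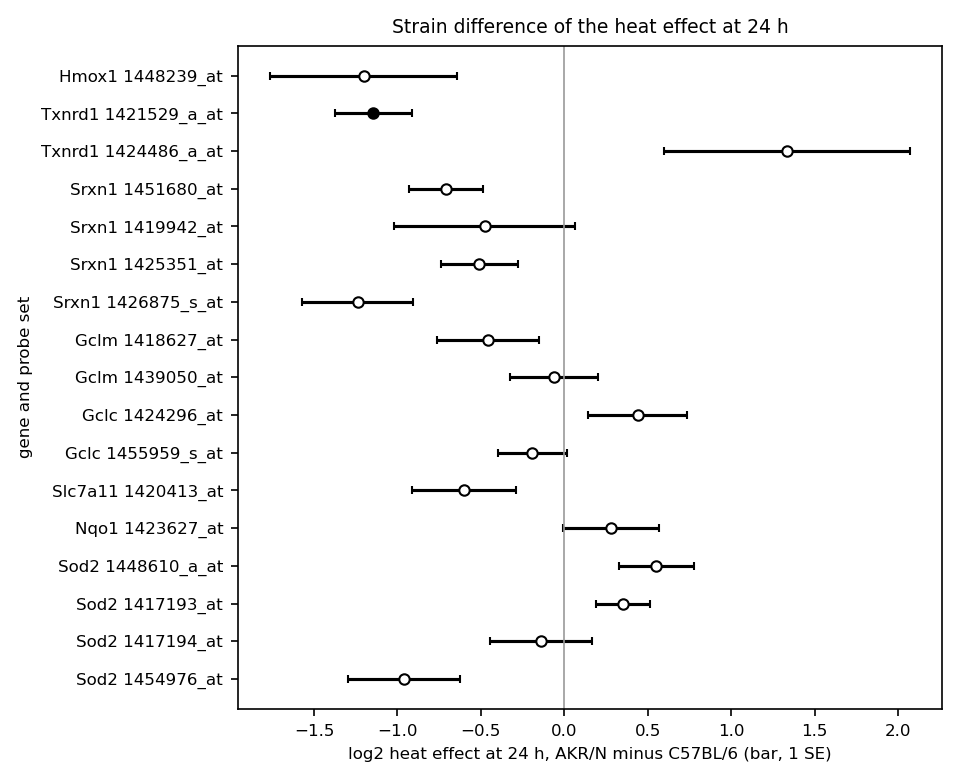
Strain difference of the 24 h heat effect (x axis, log2, AKR/N minus C57BL/6) for the 17 tested probe sets; bars are 1 SE and the filled point is the one with an adjusted p under 0.05. Txnrd1 1421529_a_at is at -1.15, Hmox1 at -1.20 with an SE of 0.56, and Nqo1 at 0.28.

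In unheated testes 1 of the 2 Gclc probe sets was called lower in AKR/N. In controls 0 probe sets were higher and 1 was lower in AKR/N than in C57BL/6, beside 2.18% and 2.6% of all, and it was Gclc 1424296_at, with 102.3 and 152.9 in AKR/N against 269.1 and 296.6 in C57BL/6 (-1.08, SE 0.21, adjusted p = 0.00850). Leaving out AKR/N control replicate 1 gave -0.82 (adjusted p = 0.121), and leaving out C57BL/6 control replicate 2 gave -1.01 (adjusted p = 0.0821), so neither passed. The other Gclc probe set, 1455959_s_at, differed by -0.32 in controls (SE 0.15) and did not pass (adjusted p = 0.259). Over all 10 groups, 1 was higher and 2 were lower in AKR/N, beside 12.4% and 10.1% of all. These were Sod2 1417193_at (0.17, SE 0.05, adjusted p = 0.0326), Slc7a11 1420413_at (-0.37, SE 0.10, adjusted p = 0.0144) and Gclc 1455959_s_at (-0.28, SE 0.06, adjusted p = 0.00623). The Sod2 call ended without any 1 of 11 arrays (adjusted p = 0.0505 to 0.0672), and the count was 5 without C57BL/6 12 h replicate 2. Whether a probe set reads both strains' transcripts equally well was not tested.

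Markers of several testis cell types changed after heat, at times that differed between cell types and strains. The summed signal of 16 macrophage and leukocyte markers was 4880 to 4958 at 24 h against 4269 to 4444 in AKR/N controls, and 4972 to 5040 at 24 h against 3267 to 3608 in C57BL/6 controls. Most of that sum was 1 gene, Aif1, at 2136 to 3427 over all arrays. Of the 15 that were tested, 4 were called higher and 0 lower at 24 h in AKR/N, beside 10.8% and 9.66% of 15762 genes, and 6 higher and 0 lower in C57BL/6, beside 19.8% and 15.6%. At 12 h 1 was higher and 1 lower in AKR/N, beside 3.01% and 2.45% of genes, and 0 higher and 1 lower in C57BL/6, beside 8.2% and 8.25%. Of the defining markers, Itgam did not pass the filter, with 0.459 to 18.7 over all arrays, and Cd163, the macrophage receptor for hemoglobin, was at 0.79 to 26.4.

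The sum of 6 Leydig cell markers was above controls in C57BL/6 at each heated time before 24 h. It was 3348 to 3584 at 8 h, 3443 to 3607 at 10 h and 2895 to 3492 at 12 h against 1911 to 2151 in C57BL/6 controls, with 2, 3 and 2 of 6 tested markers called higher and 0 lower. In AKR/N it was 3615 to 4007 at 8 h, 5312 to 5507 at 10 h and 4071 to 4469 at 12 h against 4130 to 4279 in controls, with 0, 1 and 1 called higher and 1 lower at 12 h. At 24 h it was 2444 to 2555 in AKR/N, with 0 higher and 2 lower, and 2111 to 2425 in C57BL/6, with 3 higher and 2 lower. Cyp17a1 had the highest median signal of the 6 Leydig markers, with 404 to 3190 over all arrays, and so weighs most in this sum. The sum of 9 measured Sertoli cell markers was 7627 to 8142 at 12 h and 8839 to 8881 at 24 h against 6108 to 6517 in AKR/N controls, and 8598 to 8651 at 12 h and 9239 to 9769 at 24 h against 5414 to 5608 in C57BL/6 controls. Most of that sum was Clu, at 3843 to 7365 over all arrays, and Amh was below the filter. Of 8 tested Sertoli markers, 1 was higher at 12 h and 3 at 24 h in AKR/N, 3 were higher at 12 h and 5 at 24 h in C57BL/6, and 0 were lower. Of all genes, 3.01% were higher and 2.45% lower at 12 h in AKR/N, and 10.8% and 9.66% at 24 h. In C57BL/6 the shares were 8.2% and 8.25% at 12 h, and 19.8% and 15.6% at 24 h. Of all probe sets, 0.107% were higher and 0.0143% lower at 8 h in AKR/N, and 2.67% and 1.14% at 10 h. In C57BL/6 these were 0.0893% and 0% at 8 h, and 4.05% and 3.15% at 10 h.

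Pachytene spermatocyte, endothelial and round spermatid markers also moved. Of 8 round spermatid markers, 2 were called higher and 0 lower at 24 h in AKR/N, beside 10.8% and 9.66% of all genes. In C57BL/6 4 were higher and 1 lower, beside 19.8% and 15.6%. Of 8 spermatogonia markers, 2 were higher at 24 h in AKR/N and 1 in C57BL/6, and 0 were lower. The sum of 8 pachytene spermatocyte markers was 20741 to 22807 at 10 h, 20674 to 23343 at 12 h and 21718 to 21872 at 24 h against 24952 to 25546 in AKR/N controls, and 20957 to 21349 at 10 h, 22023 to 22249 at 12 h and 20054 to 20934 at 24 h against 23749 to 24458 in C57BL/6 controls. Of these 8, 0, 1 and 3 were called lower at 10, 12 and 24 h in AKR/N, and 2, 3 and 5 in C57BL/6, where 1 was higher at 24 h. Of all genes, 2.45% were lower at 12 h and 9.66% at 24 h in AKR/N. In C57BL/6 these shares were 8.25% and 15.6%, with 19.8% higher at 24 h. At 10 h, 1.14% of all probe sets were lower in AKR/N and 3.15% in C57BL/6. Ldhc, at 8552 to 10535.5 over all arrays, and Pgk2, at 4034 to 6123, had the highest median signals of the 8 markers. The sum of 7 endothelial markers was 206 to 271 at 12 h and 186 to 227 at 24 h against 163 to 165 in AKR/N controls, and 204 to 273 at 12 h and 255 to 265 at 24 h against 131 to 132 in C57BL/6 controls. Of 6 tested endothelial markers, 1 was called higher at 12 h and 0 at 24 h in AKR/N, 2 were higher at both times in C57BL/6, and 0 were lower. Of all genes, 3.01% were higher at 12 h and 10.8% at 24 h in AKR/N, and 8.2% and 19.8% in C57BL/6. Of 7 neutrophil markers, 6 were tested and 0 called at 12 or 24 h in either strain. Most of these markers were dim, with median signals from 3.25 for S100a9 to 51.9 for Mpo, so the lack of calls says little about neutrophils. The part of these cell types in the values of the antioxidant genes was not tested.

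Genes that control NRF2 were read from a list of 15, by the brightest probe set of each gene, and the 15 were all tested. At 12 h, 4 were called higher and 0 lower in AKR/N, beside 3.01% and 2.45% of 15762 genes, and 4 higher and 1 lower in C57BL/6, beside 8.2% and 8.25%. At 24 h, 4 were higher and 2 lower in AKR/N, beside 10.8% and 9.66%, and 4 higher and 2 lower in C57BL/6, beside 19.8% and 15.6%. The median change of the 15 at 12 h was 0.08 in AKR/N and 0.06 in C57BL/6. Nfe2l2 itself had signals of 226.4 and 186.8 in AKR/N controls, 150.04 and 126.8 at 8 h, 177.9 and 174.7 at 10 h, 330.0 and 305.9 at 12 h, and 320.7 and 321.6 at 24 h. In C57BL/6 it had 151.1 and 136.0 in controls, 143.6 and 132.5 at 8 h, 266.8 and 223.2 at 10 h, 322.2 and 295.1 at 12 h, and 359.0 and 317.5 at 24 h. At 24 h Nfe2l2 rose by 0.60 in AKR/N (SE 0.14, adjusted p = 0.0108) and by 1.15 in C57BL/6 (SE 0.14, adjusted p = 6.19e-05), and the AKR/N call ended without AKR/N 24 h replicate 2 (adjusted p = 0.0778) or control replicate 2 (adjusted p = 0.0871). Its dimmer probe set, 1457117_at, is given only over the mean of the times, which is not the 24 h comparison above. In that mean it did not pass, at 0.89 in AKR/N (adjusted p = 0.0570) and -0.30 in C57BL/6 (adjusted p = 0.465).

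Keap1, the NRF2 anchor, stayed between 216.3 and 301.9 in AKR/N and between 270.2 and 331.2 in C57BL/6, and its 24 h change was -0.31 in AKR/N (SE 0.13, adjusted p = 0.105) and 0.04 in C57BL/6 (SE 0.13, adjusted p = 0.863). Its other probe set, 1450747_at, did not pass over the mean of the times, at 0.30 in AKR/N (adjusted p = 0.312) and -0.24 in C57BL/6 (adjusted p = 0.362). Bach1, the repressor of Hmox1, had 48.8 and 37.6 in AKR/N controls, 46.0 and 102.4 at 8 h, 113.4 and 95.1 at 10 h, 176.4 and 157.4 at 12 h, and 56.97 and 105.0 at 24 h. In C57BL/6 it had 33.7 and 40.7 in controls, 54.7 and 57.8 at 8 h, 192.6 and 131.8 at 10 h, 205.2 and 175.6 at 12 h, and 177.5 and 179.3 at 24 h. Bach1 rose at 12 h by 1.63 in AKR/N (SE 0.28, adjusted p = 0.00625) and by 1.95 in C57BL/6 (SE 0.28, adjusted p = 0.00108), and at 24 h it changed by 0.67 in AKR/N (adjusted p = 0.113) and rose by 1.87 in C57BL/6 (adjusted p = 2.43e-04). The AKR/N 12 h call ended without AKR/N 12 h replicate 1 (adjusted p = 0.0666). The other Bach1 probe set, 1449311_at, is given only over the mean of the times. In that mean it changed by 0.57 in AKR/N (adjusted p = 0.138) and rose by 1.08 in C57BL/6 (adjusted p = 0.00384). Maff, a small MAF partner, had 85.9 and 50.02 at 12 h against 7.4 and 2.3 in AKR/N controls, and 61.2 and 141.8 at 12 h against 18.5 and 19.3 in C57BL/6 controls. It rose at 12 h by 1.99 in AKR/N (SE 0.31, adjusted p = 0.00363) and by 1.66 in C57BL/6 (SE 0.31, adjusted p = 0.00364), and the AKR/N call ended without AKR/N 12 h replicate 1 (adjusted p = 0.0568). Sqstm1, the p62 autophagy adaptor that binds KEAP1, rose at 12 h by 1.66 in AKR/N (SE 0.16, adjusted p = 1.75e-04) and by 1.40 in C57BL/6 (SE 0.16, adjusted p = 3.18e-04). Btrc, an adaptor of a ubiquitin ligase that also targets NRF2, fell at 24 h by 1.17 in AKR/N (SE 0.14, adjusted p = 4.40e-04) and by 1.14 in C57BL/6 (SE 0.14, adjusted p = 5.85e-05) on its brightest probe set, 1425680_a_at. The other 4 Btrc probe sets are given only over the mean of the times and not at 24 h. In that mean they did not pass, with changes of -0.39 to 0.14 in AKR/N and -0.23 to 0.36 in C57BL/6.

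**Figure D5:**
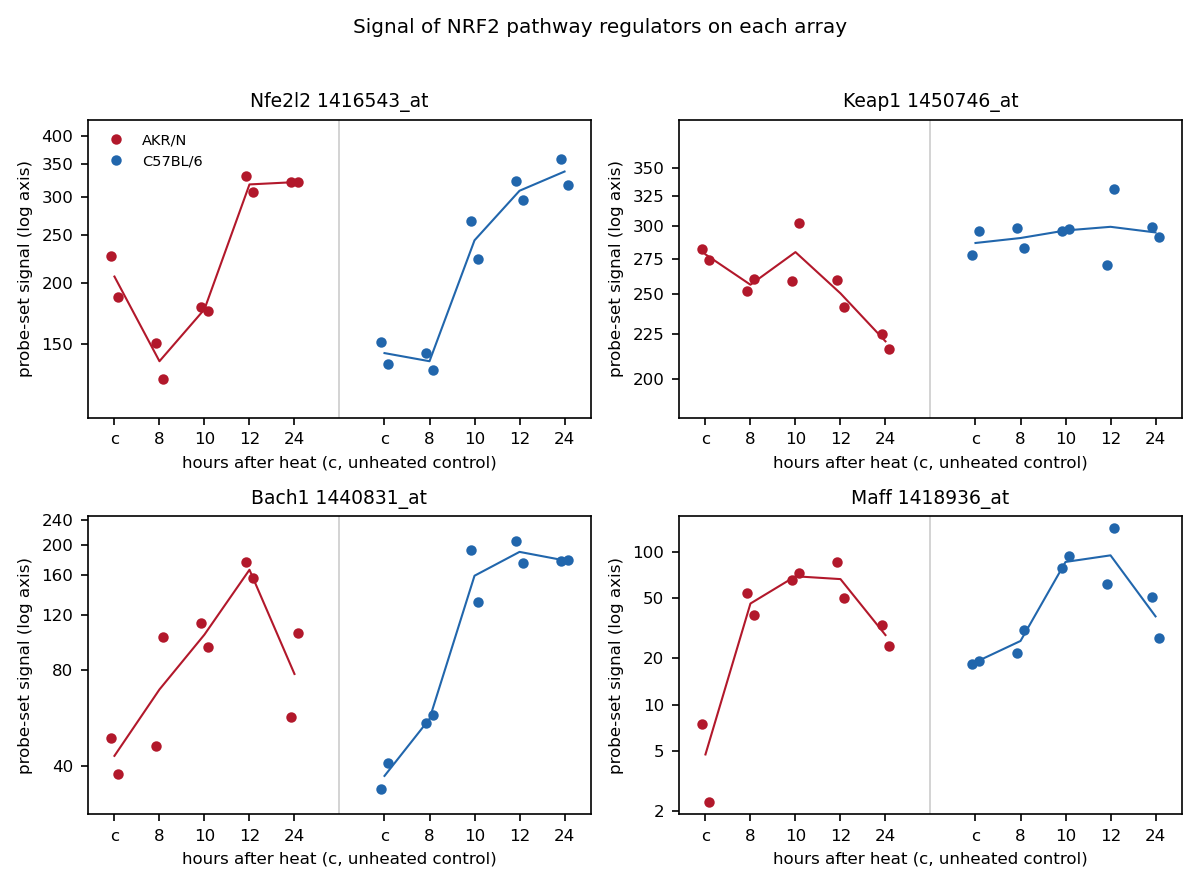
Signals (log axes with different ranges) of Nfe2l2, Keap1, Bach1 and Maff on each array by time after heat, with AKR/N on the left and C57BL/6 on the right; points are arrays and lines join group means. Keap1 stays between 216.3 and 331.2, while Bach1 and Maff are highest at 10 or 12 h in both strains.

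Other genes known to answer to NRF2 were also measured. Of a list of 21, 19 were tested, and at 12 h 4 were higher and 0 lower in AKR/N, beside 3.01% and 2.45% of all genes, and 7 higher and 1 lower in C57BL/6, beside 8.2% and 8.25%. At 24 h 9 were higher and 0 lower in AKR/N, beside 10.8% and 9.66% of all genes, and 14 higher and 0 lower in C57BL/6, beside 19.8% and 15.6%, with a median change of 0.62 in AKR/N and 0.92 in C57BL/6. Txn1, the thioredoxin that Txnrd1 reduces, had 1204 and 1497 at 24 h against 565.2 and 487.7 in AKR/N controls, and 1345 and 1137 at 24 h against 397.3 and 365.9 in C57BL/6 controls. It rose at 24 h by 1.33 in AKR/N (SE 0.14, adjusted p = 2.70e-04) and by 1.66 in C57BL/6 (SE 0.14, adjusted p = 5.38e-06). Another Txn1 probe set, 1456734_at, is given only over the mean of the times and not at 24 h. In that mean it did not pass, at -0.28 in AKR/N (adjusted p = 0.789) and 0.11 in C57BL/6 (adjusted p = 0.912). Pgd, an enzyme of the pentose phosphate path that makes NADPH, rose at 24 h by 1.10 in AKR/N (SE 0.15, adjusted p = 7.32e-04) and by 1.93 in C57BL/6 (SE 0.15, adjusted p = 4.18e-06). Ugdh, which makes UDP-glucuronate, rose at 12 h by 1.64 in AKR/N (SE 0.21, adjusted p = 0.00118) and by 1.41 in C57BL/6 (SE 0.21, adjusted p = 0.00137). Ephx1, an epoxide hydrolase, rose at 12 h in C57BL/6 by 0.73 (adjusted p = 0.00405) and changed by 0.37 in AKR/N (adjusted p = 0.128).

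The thioredoxin and peroxiredoxin list had 13 of 16 genes tested, and at 24 h 5 were higher and 0 lower in AKR/N, beside 10.8% and 9.66% of all genes, and 8 higher and 0 lower in C57BL/6, beside 19.8% and 15.6%. Prdx3, the mitochondrial peroxiredoxin, rose at 24 h by 1.01 in AKR/N (SE 0.14, adjusted p = 7.48e-04) and by 1.07 in C57BL/6 (SE 0.14, adjusted p = 9.39e-05). Sesn1, a p53-induced sestrin, rose at 24 h by 0.98 in AKR/N (SE 0.14, adjusted p = 9.53e-04) and by 0.74 in C57BL/6 (SE 0.14, adjusted p = 0.00139) on its brightest probe set, 1433711_s_at. The other 3 Sesn1 probe sets are given only over the mean of the times and not at 24 h. In that mean they did not pass, with changes of -0.49 to 0.40 in AKR/N and 0.05 to 0.20 in C57BL/6. Txnip, which binds and inhibits thioredoxin, rose at 24 h by 0.99 in AKR/N (adjusted p = 0.0108) and by 0.91 in C57BL/6 (adjusted p = 0.00830), but the AKR/N value did not pass when 24 h replicate 2 (adjusted p = 0.101) or control replicate 1 (adjusted p = 0.0827) was left out, nor the C57BL/6 value when 24 h replicate 1 was (adjusted p = 0.0982). The list of superoxide, peroxide and glutathione peroxidase enzymes had 11 of 11 tested, and at 24 h 4 were higher and 1 lower in AKR/N, beside 10.8% and 9.66% of all genes, and 4 higher and 2 lower in C57BL/6, beside 19.8% and 15.6%. Ccs, the copper chaperone of Sod1, was among those that fell at 24 h, by 0.62 in AKR/N (adjusted p = 0.00987) and by 0.80 in C57BL/6 (SE 0.14, adjusted p = 7.99e-04). The AKR/N call of Ccs was lost without AKR/N 24 h replicate 2 (adjusted p = 0.105) or control replicate 2 (adjusted p = 0.0850). Gpx7, a peroxidase of the endoplasmic reticulum, rose at 24 h by 1.12 in AKR/N (adjusted p = 0.00627) and by 0.90 in C57BL/6 (adjusted p = 0.00979), and leaving out 1 array lost the AKR/N call in the case of control replicate 1 (adjusted p = 0.0610) and the C57BL/6 call in the case of 24 h replicate 1 (adjusted p = 0.0554) or control replicate 2 (adjusted p = 0.117).

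Of 15 genes of glutathione synthesis and recycling, 14 were tested, and at 24 h 2 were higher and 1 lower in AKR/N, beside 10.8% and 9.66% of all genes, and 3 higher and 0 lower in C57BL/6, beside 19.8% and 15.6%. Gsr, glutathione reductase, passed in neither strain at 24 h, at -0.03 in AKR/N (adjusted p = 0.950) and 0.59 in C57BL/6 (adjusted p = 0.0897). Slc3a2, the heavy chain that pairs with Slc7a11, rose at 24 h in C57BL/6 by 0.69 (SE 0.15, adjusted p = 0.00262), and in AKR/N by 0.53 (adjusted p = 0.0230), where the call was lost without AKR/N 24 h replicate 1 (adjusted p = 0.0604), 24 h replicate 2 (adjusted p = 0.147) or control replicate 1 (adjusted p = 0.153). Of 24 heme and iron genes, 22 were tested, and at 24 h 5 were higher and 0 lower in AKR/N, beside 10.8% and 9.66% of all genes, and 9 higher and 1 lower in C57BL/6, beside 19.8% and 15.6%. Slc40a1, the iron exporter ferroportin, changed at 24 h by 0.86 in AKR/N (SE 0.29, adjusted p = 0.0521) and rose by 1.58 in C57BL/6 (SE 0.29, adjusted p = 9.28e-04). Of 14 genes of the amino acid response, all 14 tested, 4 were higher and 2 lower at 24 h in AKR/N, beside 10.8% and 9.66% of all genes, and 6 higher and 2 lower in C57BL/6, beside 19.8% and 15.6%. Asns, asparagine synthetase, rose at 24 h by 0.69 in AKR/N (SE 0.12, adjusted p = 0.00195) and by 0.84 in C57BL/6 (SE 0.12, adjusted p = 1.37e-04).

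Genes with a time course most like Hmox1 were ranked by Pearson r over the 10 group means among 5282 genes whose group means ranged over at least 1 log2 unit. They were Hspa8 (r = 0.991), Btg2 (0.979), Atf4 (0.972), Gadd45b (0.943) and Zfand2a (0.929). For Txnrd1 they were Zfand2a (0.975), Nr4a1 (0.948) and Atf4 (0.934), and for Sod2 1448610_a_at they were Cetn3 (0.976), Znhit3 (0.976) and Commd1 (0.975). These values are descriptions, since the points share arrays and the genes were picked for the highest r. Hspa8, the constitutive HSC70 chaperone, had 1612 and 1615 in AKR/N controls, 2389 and 2821 at 8 h, 4285 and 3833 at 10 h, 5288 and 5189 at 12 h, and 1753 and 1889 at 24 h. In C57BL/6 it had 1214 and 1287 in controls, 2395 and 2566 at 8 h, 4590.1 and 4378 at 10 h, 4388 and 4265 at 12 h, and 2447 and 2596 at 24 h. Over the same group means, the brightest probe set of Hmox1 had r = 0.883 with that of Txnrd1, 0.669 with Srxn1, 0.720 with Gclm and 0.152 with Nqo1. With Gclc it had 0.439, with Slc7a11 0.151 and with Sod2 -0.558.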

How the data were processed

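Total RNA of whole testes was measured on 20 Affymetrix GeneChip 430 2.0 arrays, 2 for each of 10 strain and time groups named in the labels. The authors deposited 1 linear signal intensity per probe set and array; no source used here gives the software or the scaling. Probe sets were named from the platform annotation, and those with several symbols were left out. The values were used as log2(signal + 16). Probe sets were tested if the highest of the 10 group means reached the 40th percentile of mean log2 signal. limma 3.58.1 in R 4.3.3 fitted 1 mean per group over all 20 arrays, with Benjamini-Hochberg adjustment over 28000 probe sets. A gene outside the 9 was read by its brightest probe set. The 9 genes and all lists were chosen with earlier results of these data known. Genes outside the 9 were named as the up to 4 of each list with the smallest adjusted p in the mean heat effect of both strains, with Nfe2l2, Keap1 and Bach1 always, and the genes most like Hmox1, Txnrd1 and Sod2 by Pearson r over group means. Replicate numbers showed no common pairing of the arrays. Over 45 pairs of groups, same-numbered deviations correlated at -0.243 to 0.251, with a median of -0.0011. The correlation was above 0.1 in 3 pairs. Others were below -0.1, such as AKR/N 12 h with C57BL/6 12 h at -0.183. The fit was tested on simulated data. Alternatives were other added constants, no filter, median centring, quantile normalization, a variance trend, 1 probe set per gene, only the groups compared, a replicate block and each array left out. The number of arrays limits the precision.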

Additional observations from a re-analysis of the deposited data

Results flagged for a closer look

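The heat effect on Txnrd1 1421529_a_at at 24 h differed between strains in a test of the difference itself, at -1.15 (log2, AKR/N minus C57BL/6, SE 0.23, limma adjusted p = 0.0390). Its signals at 24 h were 133.2 and 158.5 in AKR/N against 358.0 and 378.1 in C57BL/6, and in controls 205.8 and 178.8 in AKR/N against 211.6 and 203.6 in C57BL/6. The other tested Txnrd1 probe set, which is dim, had a difference of 1.34 (SE 0.74, adjusted p = 0.379). The call on 1421529_a_at was lost without any 1 of the 8 arrays behind it (-1.03 to -1.26, adjusted p = 0.0635 to 0.142), and with 1 added, no filter, median centring or only the groups compared (adjusted p = 0.0538 to 0.104). The limma F test over any time called 0 of the 17 probe sets, with 7 at an unadjusted p under 0.05.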

How the results depend on the processing

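No alternative reversed a called change. Of the 17 probe sets, with 1 probe set per gene (8 tested), 5 were called over the mean of the times in C57BL/6, 3 at 10 h, 4 at 12 h and 6 at 24 h, and in AKR/N 3, 3, 4 and 1, with 5 over both strains and 1 between strains over all groups. With only the groups compared, 0 were called at 10 h and at 12 h in C57BL/6, and in AKR/N 2 over the mean, 0 at 10 h, 2 at 12 h and 0 at 24 h, with 0 for the 24 h strain difference and 0 between controls. With 64 added, and also with a variance trend and robust moderation, 5 were called at 24 h against earlier times in C57BL/6, 1 for the strain difference over the mean, 1 at 10 h, 2 at 24 h and 3 over any time, and the trend fit called 8 at 10 h in AKR/N. With 1 added, no filter or median centring, 0 were called for the 24 h strain difference, and quantile normalization called 6 between strains over all groups. With 1 array left out, the counts were 4 to 6 at 10 h and 1 to 5 at 24 h against earlier times in C57BL/6, and in AKR/N 0 to 6 over the mean, 2 to 4 at 10 h, 1 to 3 at 24 h and 3 to 6 at 24 h against earlier times. They were 0 for the 24 h strain difference, 0 to 1 between controls and 2 to 5 over all groups. The replicate block called 9 over the mean and 11 at 24 h in C57BL/6 and 6 over the mean and 3 at 24 h in AKR/N. Median centring moved the median 24 h change of all probe sets in C57BL/6 to -0.066, against 0.085. Dim probe sets limit what could be called. Shares of all probe sets called under these alternatives were not worked out. The cause of these shifts was not tested.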
